A study of Homo sapiens and Mus musculus with 22 samples.

Results

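H69M is a derivative of NCI-H69 (H69), a human small cell lung cancer (SCLC) line, and its cells were sorted by surface PD-L1 before RNA sequencing. The comparison described here is between the fraction labelled PD-L1 high and the fraction labelled PD-L1 low or negative, called PD-L1 low below. The sorted populations were chosen by their labels: 3 libraries of each fraction, 6 of the 22 libraries in the series, with all genes described. Per the labels, the PD-L1 high fraction is MHC class I high and the PD-L1 low fraction is MHC class I low or negative. Unsorted H69M, labelled MHC class I high, and parental H69, labelled MHC class I low or negative, have 3 libraries each and serve as references. The labels give no drug, time point or engineered allele for these 4 groups, and cite a published derivation of H69M from H69. Nothing in the labels ties the 3 replicates of a group to separate cultures or sorts, so each p-value reflects library-to-library spread that could be purely technical. Libraries were made from 250 ng of total RNA with an exome capture kit and sequenced on an Illumina NextSeq.

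SCLC cells are typically neuroendocrine. They express proneural transcription factors, granins, prohormone enzymes and the machinery of synaptic vesicles, and carry little MHC class I. SCLC lines can also hold cells without these neuroendocrine genes, which express mesenchymal genes and YAP1. PD-L1, encoded by CD274, engages the receptor PD-1 on T cells, and its transcription is induced by interferon through JAK kinases, STAT factors and IRF1. ATF4 is the transcription factor that cells use to raise amino acid synthesis and transport when amino acids are short or the endoplasmic reticulum is stressed.

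CD274 was measured at 0.222, 0.140 and 0.434 CPM (counts scaled to library sizes after TMM normalization) in the 3 PD-L1 low libraries and at 12.9, 13.4 and 13.7 CPM in the 3 PD-L1 high libraries. Its mRNA thus followed the sort in every library, with a log2 fold change of 5.74 ± 0.22. Values after ± are SE for log2 fold changes and SD over 3 libraries for mean CPM, and each fold change is PD-L1 high over PD-L1 low. The SE was derived from the test below, as the absolute log2 fold change over the square root of its F statistic. For genes near 0 counts it can understate the spread, as some values with 1 library left out show. A gene was called where edgeR's quasi-likelihood F-test gave a Benjamini-Hochberg adjusted p under 0.05 over the 15445 genes tested. Rose and fell are used only of called genes, and the largest adjusted p among the called genes named here was 0.0494. Of the 15445 genes, 12100 were called (78.3%), 6021 higher (39%) and 6079 lower (39.4%) in PD-L1 high. At least 2-fold differences were reached by 2520 genes that rose (16.3%) and 2624 that fell (17%). The changes were lopsided at the extremes: 1080 genes rose at least 8-fold (6.99%) against 229 that fell as far (1.48%), and 583 rose at least 32-fold (3.77%) against 22 (0.142%). The 3 libraries of one fraction lay wholly above or below those of the other for 12372 genes (80.1%), higher in PD-L1 high for 39.8% and lower for 40.3% of all genes. Because most genes were called, the counts of members below are to be read against these percentages. Counts cover the members that passed the filter on low counts, and a member that passed through 1 fraction alone had to differ. The filter left 14 of 17 sensors of nucleic acids, 13 of 17 complement genes, 15 of 21 ligands of NK and T cells, 16 of 20 inhibitory ligands, 22 of 29 granins and peptides, 29 of 37 neurotransmitter receptors, 19 of 26 intermediate filaments, 13 of 22 retroviral and 15 of 21 imprinted genes. In bulk RNA of a sorted fraction, fewer cells of a type and less RNA per cell cannot be told apart.

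**Figure D1:**
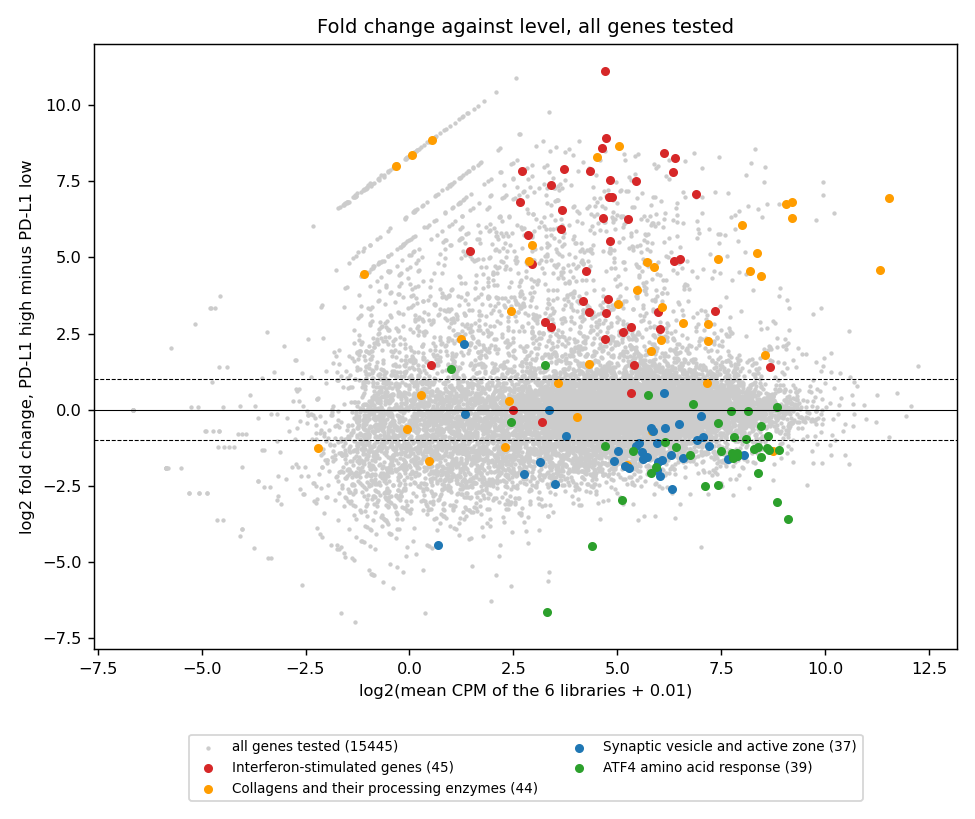
Log2 fold change (PD-L1 high minus PD-L1 low) of each of the 15445 genes tested against the log2 of its mean CPM over the 6 libraries plus 0.01, with 4 lists coloured. Interferon-stimulated genes and collagens lie mostly above the upper dashed line at 2-fold, while genes of the ATF4 response and of synaptic vesicles lie mostly below the lower line.

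PD-L1 low replicate 3 carried more of the genes of the other fraction than its fellows. Over the 1080 genes at least 8-fold higher in PD-L1 high, the summed level was 3.36%, 3.25% and 4.15% of the PD-L1 high level in PD-L1 low replicates 1, 2 and 3, and replicate 3 was the highest of its group for 66.3% of them. Values without this library are given beside each gene that it moved by over 1.5 times. Total counts were 13104998 to 21499865 in PD-L1 low and 14752176 to 21533233 in PD-L1 high. Markers of other cell types were read as well. Of 24 leukocyte markers 5 passed the filter on low counts. The summed level of all 24 was 9.77 to 10.7 CPM in PD-L1 low and 13.4 to 13.9 CPM in PD-L1 high. CD68 (3.98 ± 0.28) and CSF1R (3.73 ± 0.37) rose, LAPTM5 fell (-2.13 ± 0.17) and CD14 was at -0.02 ± 0.27, not called. PTPRC, the pan-leukocyte gene CD45, rose from 2 counts in PD-L1 low to 23 in PD-L1 high, a ratio of 12.5-fold (exact binomial 95% interval 3.08 to 109). Among the members under the filter, the T cell genes CD3D, CD3E and CD2 had 0 counts in all 6 libraries, CD3G had 1 in all, CD4 had 1 to 3 in each, and CD8A had 10, 8 and 10 in PD-L1 low against 0, 2 and 0 in PD-L1 high. Of 18 fibroblast and stromal markers 13 passed, and 9 of these rose and 1 fell at least 2-fold, against 16.3% and 17% of all genes. The sums over all 18 were 642 to 742 CPM in PD-L1 low and 11576 to 11868 CPM in PD-L1 high. Most of the latter came from COL1A1 and COL1A2, at means of 5877 and 4864 CPM in PD-L1 high. Of 19 endothelial markers 15 passed, and 10 of these rose and 3 fell at least 2-fold, with a median log2 fold change of 3.57. Sums over all 19 were 26.4 to 28.4 CPM in PD-L1 low and 92.4 to 97.4 CPM in PD-L1 high. PECAM1 stayed under the filter, at 7, 10 and 8 counts in PD-L1 low and 1, 4 and 0 in PD-L1 high. Of 28 immediate early genes, which respond to cell handling, 26 passed, and 9 of these rose and 4 fell at least 2-fold. Sums over all 28 were 1062 to 1132 and 1719 to 1785 CPM. Most of that rise came from CTGF, at means of 2.63 and 594 CPM, while ATF3 fell from 109 to 9.72 CPM. The part of such cells or of handling in the results below was not tested.

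Most antigen presentation genes were higher in PD-L1 high. All 7 MHC class I genes tested, the heavy chains and B2M, rose at least 2-fold, with a median log2 fold change of 3.99 against -0.0031 over all genes. HLA-E, which is read by inhibitory receptors on NK cells, rose from 1.89 ± 0.531 to 99.8 ± 5.58 CPM (5.77 ± 0.12). The class I heavy chains are near relatives whose reads may be shared, so the split between them is uncertain. Of 12 genes of peptide transport, trimming and loading, 10 rose at least 2-fold and the peptidase THOP1 fell by 0.27 ± 0.05 on the log2 scale. ERAP2, an aminopeptidase that trims peptides in the endoplasmic reticulum, was at 13.7, 13.3 and 18.8 CPM in PD-L1 low and at 339, 339 and 329.8 CPM in PD-L1 high, a log2 fold change of 4.49 ± 0.09. The libraries of the fractions did not overlap, and the chaperone TAPBP (2.43 ± 0.06) and the aminopeptidase ERAP1 (2.06 ± 0.06) rose less. Among 5 immunoproteasome genes 3 rose at least 2-fold, the activator subunit PSME2 by 1.32 ± 0.05. By contrast, the 16 genes of the constitutive proteasome held no 2-fold change, although 14 of them rose, with a median of 0.45. Of 13 MHC class II genes only HLA-DOB and HLA-DMA passed the filter, and HLA-DOB rose from 0.173 to 1.498 CPM.

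Most interferon-stimulated genes rose. Of 45 tested members, 42 rose at least 2-fold, against 16.3% of all genes. Of the other 3, TDRD7 rose by less (0.55 ± 0.07), 1 fell by less than 2-fold and DDX60L was at -0.01 ± 0.16, not called. Their median log2 fold change was 5.21. This list was drawn up after values had been seen, and its members are known to be induced together by a complex of STAT factors and IRF9. The promoters below are shown because they carry the sequence through which that complex acts, the interferon-stimulated response element. Each is a window of 100 bases of reference sequence placed within the 250 bases before the RefSeq start of transcription (GRCh38.p14), 5′ to 3′ on the gene's strand, with matches to its core, 2 copies of GAAA set 2 bases apart, on either strand in capitals. IFI44L is at chr1:78620330-78620429 on the plus strand, IFI6 at chr1:27672231-27672330 on the minus strand, ISG15 at chr1:1013345-1013444 on the plus strand, TAP1 at chr6:32853778-32853877 on the minus strand and B2M at chr15:44711334-44711433 on the plus strand.
IFI44L: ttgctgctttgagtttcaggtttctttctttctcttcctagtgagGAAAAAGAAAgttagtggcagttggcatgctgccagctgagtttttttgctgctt
IFI6: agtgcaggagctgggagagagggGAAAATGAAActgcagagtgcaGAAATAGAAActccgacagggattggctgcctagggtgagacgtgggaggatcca
ISG15: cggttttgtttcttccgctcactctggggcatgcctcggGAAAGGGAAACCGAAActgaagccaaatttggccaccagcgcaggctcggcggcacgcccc
TAP1: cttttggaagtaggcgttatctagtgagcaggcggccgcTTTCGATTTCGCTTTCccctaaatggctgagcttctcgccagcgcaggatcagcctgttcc
B2M: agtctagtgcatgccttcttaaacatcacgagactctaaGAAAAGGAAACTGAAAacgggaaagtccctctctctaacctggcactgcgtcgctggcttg

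IFI6, a small mitochondrial protein that delays cell death, stood at 6.25, 4.47 and 6.58 CPM in PD-L1 low and at 191, 181 and 158 CPM in PD-L1 high (4.96 ± 0.13). Unsorted H69M lay between them, at 19.9, 24.4 and 16.7 CPM, with no overlap among the 3 groups. MX2, a GTPase that blocks viral nuclear import, rose from 0.127 ± 0.141 to 53.1 ± 3.96 CPM (8.92 ± 0.21). XAF1, which counters the apoptosis inhibitor XIAP, had 1 count in all PD-L1 low libraries together and 2720 in PD-L1 high, a ratio of 2950.5-fold (exact binomial 95% interval 529 to 116581). The membrane proteins IFITM1, IFITM2 and IFITM3, near relatives of each other, rose by 6.97 ± 0.25, 5.93 ± 0.16 and 7.07 ± 0.13. ISG15, the ubiquitin-like modifier, rose from 3.92 ± 0.261 to 36.1 ± 6.13 CPM (3.22 ± 0.14). The genes of the oligoadenylate synthetases OAS1 (5.55 ± 0.15), OAS2 (8.26 ± 0.24) and OAS3 (3.24 ± 0.07), which sense double-stranded RNA, rose. Restriction factors of retroviruses rose in part: TRIM5 (6.73 ± 0.22), TRIM22 (7.34 ± 0.20), SAMD9L (7.95 ± 0.17) and BST2 (6.82 ± 0.15) rose, and in the list of retroviral and repeat-derived genes 8 of 13 did so at least 2-fold while APOBEC3F (-1.30 ± 0.30) and ARC (-1.48 ± 0.12) fell as far. IFITM1 had a log2 fold change of 7.63, MX2 of 10.01, OAS2 of 9.98 and SAMD9L of 8.77 when PD-L1 low replicate 3 was left out.

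The signalling genes upstream moved by less. Of 25 interferon receptors, JAKs, STATs and IRFs, 8 rose and 2 fell at least 2-fold, with a median of 0.68. STAT2 was at 34.2, 34.98 and 36.3 CPM in PD-L1 low and 119.8, 130.2 and 144 CPM in PD-L1 high (1.90 ± 0.08). The groups did not overlap, and the kinase JAK2 (2.33 ± 0.11), the feedback inhibitor SOCS1 (2.56 ± 0.14) and IRF9 (3.34 ± 0.11) rose too. IRF1, the factor that drives CD274 and MHC class I genes, rose by 0.44 ± 0.07 only, from 32.7 ± 3.95 to 44.02 ± 1.52 CPM. The receptor chains IFNGR1 (0.94 ± 0.06) and IFNAR1 (0.75 ± 0.08) rose under 2-fold, while IRF5 (-2.91 ± 0.18) fell. Among 14 sensors of nucleic acids, 8 rose and none fell at least 2-fold. IFI16, a sensor of DNA, rose from 0.302 ± 0.365 to 72.03 ± 4.94 CPM (8.18 ± 0.20), and the RNA sensors DDX58 (RIG-I, 3.33 ± 0.08) and IFIH1 (MDA5, 1.83 ± 0.09) followed. TLR3, which reads double-stranded RNA in endosomes, had 1 count in PD-L1 low and 96 in PD-L1 high, a ratio of 104-fold (exact binomial 95% interval 18.2 to 4155). The relay MAVS (0.58 ± 0.06) and the kinase TBK1 (0.38 ± 0.07) rose under 2-fold, whereas IKBKE, its relative, rose by 3.66 ± 0.16. IFI16 had a log2 fold change of 9.54 when PD-L1 low replicate 3 was left out.

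Most of the secreted immune factors that could be tested rose. Of 37 chemokines and cytokines 24 passed the filter, some through PD-L1 high alone, and 20 of these rose and 2 fell at least 2-fold, with a median of 4.92, or 4.62 with the 3 members that had no count in PD-L1 low set at their bound. IL33, an alarmin, had 3 counts in PD-L1 low and 710 in PD-L1 high, a ratio of 257-fold (exact binomial 95% interval 87.5 to 1248). Interleukin 6 had no count in PD-L1 low and 76 in PD-L1 high, at least 27.5-fold higher against a floor of 3 counts over the group. CSF1, the growth factor of macrophages, rose from 1.298 ± 0.645 to 98.2 ± 3.22 CPM (6.35 ± 0.13), and the STAT3 activator LIF from 0.534 ± 0.219 to 13.5 ± 0.199 CPM (4.55 ± 0.19). CX3CL1, a ligand for NK and T cells, went from 1 count to 346, a ratio of 375-fold (exact binomial 95% interval 66.9 to 14867). TNF (-1.64 ± 0.63) and CXCL16 (-1.69 ± 0.17) fell, both from under 5 CPM, and the TNF call was lost without PD-L1 low replicate 2 or PD-L1 high replicate 1 or 3. Of 20 genes of the NF-kB system 11 rose and 1 fell at least 2-fold. Its feedback genes rose: BIRC3 (4.91 ± 0.20), TNIP1 (3.56 ± 0.08), TNFAIP3 (2.39 ± 0.08) and NFKBIA (1.34 ± 0.07), with the subunits NFKB1 (3.74 ± 0.09) and RELB (2.86 ± 0.12). RELA, the main transactivating subunit, rose by 0.24 ± 0.06, a call lost with library totals or upper quartile factors, and REL was at -0.02 ± 0.11, not called. TNF had a log2 fold change of -1.26 when PD-L1 high replicate 1 was left out. TNF had a log2 fold change of -2.53 when PD-L1 high replicate 2 was left out. TNF had a log2 fold change of -1.50 when PD-L1 high replicate 3 was left out. TNF had a log2 fold change of -1.51 when PD-L1 low replicate 2 was left out.

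Most complement genes rose. Of 13 tested, 9 rose and 3 fell at least 2-fold. CD55, a regulator that protects host cells, was at 0.310, 0.419 and 0.796 CPM in PD-L1 low and 51.5, 47.7 and 46.99 CPM in PD-L1 high (6.69 ± 0.18). PD-L1 high libraries lay over all PD-L1 low libraries for CD55, and the regulator CFI rose too (6.38 ± 0.11). The C1 inhibitor SERPING1 fell by 1.72 ± 0.21 and C5 by 1.17 ± 0.09 on the log2 scale. Of the ligands of NK and T cells 10 of 15 rose and 3 fell at least 2-fold. ICAM1, the adhesion ligand of LFA-1, rose from 7.36 ± 1.86 to 181 ± 7.98 CPM (4.66 ± 0.10), and PVR, a ligand of DNAM-1 and TIGIT, by 1.31 ± 0.05. Among ligands of the activating NK receptor NKG2D, MICA had no count in PD-L1 low and 34 in PD-L1 high (at least 12.3-fold higher) and RAET1E none and 112 (at least 40.5-fold higher), whereas MICB (-2.46 ± 0.15) and ULBP1 (-2.90 ± 0.20) fell. NCR3LG1, which encodes the NKp30 ligand B7-H6, fell by 1.45 ± 0.07 on the log2 scale. Of 16 inhibitory ligands and enzymes, 10 rose and 2 fell at least 2-fold. PDCD1LG2, which encodes PD-L2, was at 0, 0 and 0.362 CPM in PD-L1 low and 21.05, 21.8 and 18.6 CPM in PD-L1 high (7.79 ± 0.31). NT5E, the CD73 enzyme that makes adenosine, rose from 7.198 ± 1.13 to 376 ± 15.9 CPM (5.73 ± 0.08), and the galectin LGALS1 from 5.37 ± 1.17 to 418 ± 22.8 CPM (6.32 ± 0.09). CD276, the B7-H3 protein, rose by 2.57 ± 0.09, while CD47, the signal against phagocytosis, fell by 0.41 ± 0.08 on the log2 scale. PDCD1LG2 had a log2 fold change of 7.08 when PD-L1 low replicate 1 was left out. PDCD1LG2 had a log2 fold change of 7.16 when PD-L1 low replicate 2 was left out. PDCD1LG2 had a log2 fold change of 11.75 when PD-L1 low replicate 3 was left out. The PD-L1 low libraries that remained held no PDCD1LG2 count, so 11.75 has no floor and gives only the direction.

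Receptors that start cell death were higher in PD-L1 high. Of 27 death receptors, caspases and necroptosis genes, 18 rose and none fell at least 2-fold, with a median of 1.95. FAS was at 0.266, 0.279 and 0.289 CPM in PD-L1 low and 14.98, 15.1 and 15.2 CPM in PD-L1 high (5.74 ± 0.19). The TRAIL receptors TNFRSF10A (5.46 ± 0.17) and TNFRSF10B (6.15 ± 0.16) and the decoy TNFRSF10D (6.18 ± 0.28) rose, as did their ligand TRAIL (TNFSF10, 5.14 ± 0.14). CASP8, the initiator below these receptors, rose from 1.03 ± 0.139 to 11.3 ± 1.47 CPM (3.46 ± 0.18) and CASP1, the inflammatory caspase, from 2 to 593 counts, a ratio of 322-fold (exact binomial 95% interval 88.6 to 2662). The pore protein GSDMD rose by 4.72 ± 0.25. The BCL2 family did not move with them: none of 15 rose and 3 fell at least 2-fold. The 3 were BH3-only genes, which trigger death from within: BBC3 (PUMA) at 38.9, 35.2 and 37.8 CPM in PD-L1 low and 6.85, 7.21 and 6.61 CPM in PD-L1 high (-2.43 ± 0.08), HRK (-3.16 ± 0.25) and BIK (-1.62 ± 0.63), whose call was lost without PD-L1 low replicate 3 or PD-L1 high replicate 2 or 3. BBC3 was lower in all 3 PD-L1 high libraries, at a level near unsorted H69M (5.79 CPM). BCL2, which is abundant in many SCLC cells, fell by 0.64 ± 0.05 on the log2 scale and MCL1 rose by 0.38 ± 0.06. BIK had a log2 fold change of -2.69 when PD-L1 high replicate 1 was left out. BIK had a log2 fold change of -1.49 when PD-L1 high replicate 2 was left out. BIK had a log2 fold change of -1.23 when PD-L1 high replicate 3 was left out. GSDMD had a log2 fold change of 5.34 when PD-L1 low replicate 1 was left out. BIK had a log2 fold change of -1.34 and TNFRSF10D of 6.96 when PD-L1 low replicate 3 was left out.

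Genes of the extracellular matrix rose widely. Of 44 collagens and collagen enzymes 32 rose and 4 fell at least 2-fold (median 3.41). COL1A1, the main fibrillar collagen chain, was at 33.7, 32.6 and 82.2 CPM in PD-L1 low and 5589, 5998 and 6045 CPM in PD-L1 high (6.94 ± 0.24), with PD-L1 low replicate 3 the highest of its group. COL5A2 (6.82 ± 0.14), COL6A2 (6.76 ± 0.19) and COL12A1 (8.67 ± 0.18) rose, as did SERPINH1, the collagen chaperone (4.40 ± 0.09), and the crosslinking enzyme LOXL2 (6.07 ± 0.13). The basement membrane chains divided by gene pair: COL4A1 (at least 30.01-fold higher) and COL4A2 (at least 39.1-fold higher) had no count in PD-L1 low, while COL4A5 (-0.69 ± 0.08) and COL4A6 (-1.82 ± 0.07) fell. COL2A1, the cartilage collagen, fell from 615 ± 22.5 to 242 ± 11.2 CPM (-1.34 ± 0.06). Of 44 matrix glycoproteins and proteoglycans 35 rose and 5 fell at least 2-fold (median 2.34). Fibronectin (FN1) rose from 15.8 ± 9.404 to 1971 ± 97.2 CPM (7.05 ± 0.21), SPARC from 27.3 ± 11.6 to 2327 ± 22.3 CPM (6.46 ± 0.17) and TGFBI by 6.75 ± 0.17. POSTN, a matricellular protein, was at 319 ± 4.65 and 334 ± 1.11 CPM (0.07 ± 0.05, not called), and the glypican GPC2 fell by 1.78 ± 0.08 on the log2 scale. COL12A1 had a log2 fold change of 9.80 when PD-L1 low replicate 3 was left out.

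The receptors and remodellers of that matrix rose with it. Of 29 integrin and laminin genes 22 rose and 2 fell at least 2-fold (median 3.03). ITGA5, the fibronectin receptor chain, was at 5.54, 6.19 and 25.2 CPM in PD-L1 low and 1991, 1996 and 1915 CPM in PD-L1 high (7.47 ± 0.30). The 3 PD-L1 high libraries lay over all others for ITGA5, and ITGA11 (7.70 ± 0.18), ITGA1 (6.16 ± 0.14) and LAMB3 (6.87 ± 0.14) rose as well, while ITGA7 (-1.24 ± 0.12) and LAMC3 (-2.44 ± 0.19) fell. Of 41 proteases and inhibitors 30 rose and 5 fell at least 2-fold. MMP2, a gelatinase, rose from 5.87 ± 3.22 to 563 ± 8.77 CPM (6.69 ± 0.15), and its inhibitor TIMP3 from 0.362 ± 0.626 to 85.9 ± 2.98 CPM (8.33 ± 0.27). Among the falls were MMP24 (-1.65 ± 0.10) and ADAM22 (-1.62 ± 0.05), a neuronal adhesion protein. Of 34 smooth muscle and actomyosin genes 25 rose and 2 fell at least 2-fold (median 2.27). CNN1, CALD1 and TAGLN, actin-binding proteins of contractile cells, rose by 8.20 ± 0.24, 7.96 ± 0.24 and 7.69 ± 0.22. ACTB, the cytoplasmic actin, rose from 2617 ± 94.8 to 7019 ± 297 CPM (1.42 ± 0.05), so it was no constant reference between the fractions. TAGLN3, the neuronal member, fell by 1.05 ± 0.06 on the log2 scale. CAV1, the main caveolar coat protein, was at 2.22, 2.79 and 9.04 CPM in PD-L1 low and 734, 723 and 747 CPM in PD-L1 high (7.46 ± 0.21). It was detected in all 3 PD-L1 low libraries at these low levels, and S100A10 (5.80 ± 0.12) and ANXA1 (5.03 ± 0.10) rose too. The fibroblast markers among these genes, whose sums are given above, include COL1A1, and their part in these rises was not tested. TIMP3 had a log2 fold change of 7.59 when PD-L1 low replicate 1 was left out. CNN1 had a log2 fold change of 7.59 and TIMP3 of 7.67 when PD-L1 low replicate 2 was left out. CALD1 had a log2 fold change of 8.98, CAV1 of 8.20, CNN1 of 10.30, ITGA11 of 8.54, ITGA5 of 8.39, TAGLN of 8.63 and TIMP3 of 13.81 when PD-L1 low replicate 3 was left out. The PD-L1 low libraries that remained held no TIMP3 count, so 13.81 has no floor and gives only the direction.

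The promoters of 4 of the genes that rose are shown for 2 further motifs. EMP1 (5.63 ± 0.13), a membrane protein, at chr12:13196626-13196725 on the plus strand, and PLAUR (2.09 ± 0.07), the urokinase receptor, at chr19:43670303-43670402 on the minus strand, hold an AP-1 match (TGANTCA). COL12A1, at chr6:75206168-75206267 on the minus strand, and THBS1 (5.78 ± 0.10), at chr15:39580979-39581078 on the plus strand, hold a TEAD match (CATTCC or its complement). Windows are as above, with the match in capitals.
EMP1: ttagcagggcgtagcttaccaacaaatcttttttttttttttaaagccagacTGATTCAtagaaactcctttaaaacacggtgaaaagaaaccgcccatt
PLAUR: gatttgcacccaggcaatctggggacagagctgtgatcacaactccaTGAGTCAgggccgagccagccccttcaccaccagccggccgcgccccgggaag
COL12A1: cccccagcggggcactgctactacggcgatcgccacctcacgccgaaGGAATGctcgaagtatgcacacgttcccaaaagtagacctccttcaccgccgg
THBS1: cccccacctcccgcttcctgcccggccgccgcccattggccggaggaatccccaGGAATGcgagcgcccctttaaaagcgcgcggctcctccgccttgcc

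Hippo signalling restrains YAP1 and its relative TAZ (WWTR1), which act on DNA through TEAD factors. Of 27 genes of the pathway 12 rose and 1 fell at least 2-fold. WWTR1 was at 1.15, 1.395 and 3.04 CPM in PD-L1 low and 177, 161 and 165 CPM in PD-L1 high (6.62 ± 0.14), and YAP1 moved alike (6.13 ± 0.12). No PD-L1 low library reached the level of a PD-L1 high library for either gene. TEAD2 (4.84 ± 0.12) and TEAD3 (4.14 ± 0.15) rose, TEAD1 rose by 0.16 ± 0.05 only, a call lost in 6 of 15 alternatives, 3 of them leaving out 1 library, and TEAD4 fell by 0.86 ± 0.08 on the log2 scale. Their targets CTGF (8.09 ± 0.26) and CYR61 (7.55 ± 0.16) rose, and so did the inhibitory kinase LATS2 (5.68 ± 0.21). AMOTL1, a YAP-binding protein, fell by 1.11 ± 0.05 on the log2 scale while AMOTL2 rose by 6.36 ± 0.11. TEAD1 had a log2 fold change of 0.12 when PD-L1 high replicate 1 was left out. TEAD1 had a log2 fold change of 0.13 when PD-L1 high replicate 3 was left out. TEAD1 had a log2 fold change of 0.09 when PD-L1 low replicate 1 was left out. CTGF had a log2 fold change of 9.45 when PD-L1 low replicate 3 was left out.

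Growth factor receptors moved in both directions. Of 53 receptors and ligands 29 rose and 14 fell at least 2-fold. EGFR was at 0.975, 0.837 and 1.37 CPM in PD-L1 low and 67.8, 70.6 and 73.5 CPM in PD-L1 high (6.10 ± 0.12), and its relative ERBB3 at 50.4, 44.8 and 50.9 and 7.24, 5.66 and 5.49 CPM (-2.97 ± 0.10). The libraries of the fractions did not overlap for either gene, in opposite directions, and ERBB2 rose by 2.34 ± 0.10 while ERBB4 fell by 2.01 ± 0.07 on the log2 scale. ROS1, a receptor kinase, had no count in PD-L1 low and 627 in PD-L1 high, at least 227-fold higher. FGFR1 (2.40 ± 0.06) rose and FGFR4 (-2.26 ± 0.17) fell. MET, the HGF receptor, rose from 63.8 ± 1.54 to 302 ± 8.85 CPM (2.24 ± 0.06) and its ligand HGF from 0.802 ± 0.112 to 5.57 ± 0.728 CPM (2.76 ± 0.20). KIT (-1.53 ± 0.05) and RET (-2.18 ± 0.35), receptors found on many neuroendocrine tumours, fell. Genes induced by MAPK signalling rose in part: of 29 tested, 13 rose and 4 fell at least 2-fold. The feedback genes DUSP5 (5.18 ± 0.17), DUSP6 (2.75 ± 0.10) and SPRY4 (3.53 ± 0.15), the factor ETV5 (5.41 ± 0.13) and the AP-1 subunit FOSL1 (7.17 ± 0.17) rose, whereas the subunits JUN (-1.18 ± 0.05) and FOS (-0.91 ± 0.17) fell.

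The TGF-beta, WNT and Notch lists moved in both directions. In the TGF-beta and BMP list 13 of 40 rose and 11 fell at least 2-fold. The ligand TGFB1 rose from 39.9 ± 5.81 to 283 ± 18.6 CPM (2.83 ± 0.09) and the receptor TGFBR2 by 2.23 ± 0.09, while the co-receptor TGFBR3 fell by 1.90 ± 0.08 and the BMP antagonist CHRD by 3.68 ± 0.21 on the log2 scale. In the WNT list 13 of 39 rose and 15 fell at least 2-fold. WNT5A (2.40 ± 0.09), WNT5B (2.98 ± 0.13) and the antagonists DKK1 (6.06 ± 0.32) and DKK3 (3.25 ± 0.05) were among the rises, WNT4 (-4.03 ± 0.18), WNT11 (-1.98 ± 0.15), NKD2 (-3.71 ± 0.26) and FZD8 (-2.99 ± 0.13) among the falls. AXIN2, a standard target of beta-catenin, was at 31.8 ± 0.716 and 30.9 ± 1.14 CPM (-0.04 ± 0.07, not called). In the Notch list 5 of 30 rose and 13 fell at least 2-fold. The receptors NOTCH1 (1.82 ± 0.09), NOTCH2 (2.11 ± 0.07) and NOTCH3 (3.47 ± 0.11) and the ligand JAG1 (3.23 ± 0.06) rose, and the ligands DLL1 (-2.07 ± 0.08), DLL4 (-2.41 ± 0.09), JAG2 (-1.36 ± 0.07) and DLL3 (-1.44 ± 0.07), the last a surface target in SCLC, fell. NOTCH3 was at 15.3, 12.001 and 17.7 CPM in PD-L1 low and 163, 166 and 164 CPM in PD-L1 high, and DLL1 at 49.5, 49.2 and 46.6 and 12.6, 10.95 and 10.8 CPM. Both pairs of groups were apart in all libraries. Among target genes, HES1 fell by 0.28 ± 0.06, HEY2 by 1.95 ± 0.09 and HES5 by 3.12 ± 0.25 on the log2 scale, and HEY1 was at 0.09 ± 0.07, not called. DKK1 had a log2 fold change of 5.35 when PD-L1 low replicate 1 was left out. DKK1 had a log2 fold change of 6.65 when PD-L1 low replicate 2 was left out.

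**Figure D2:**
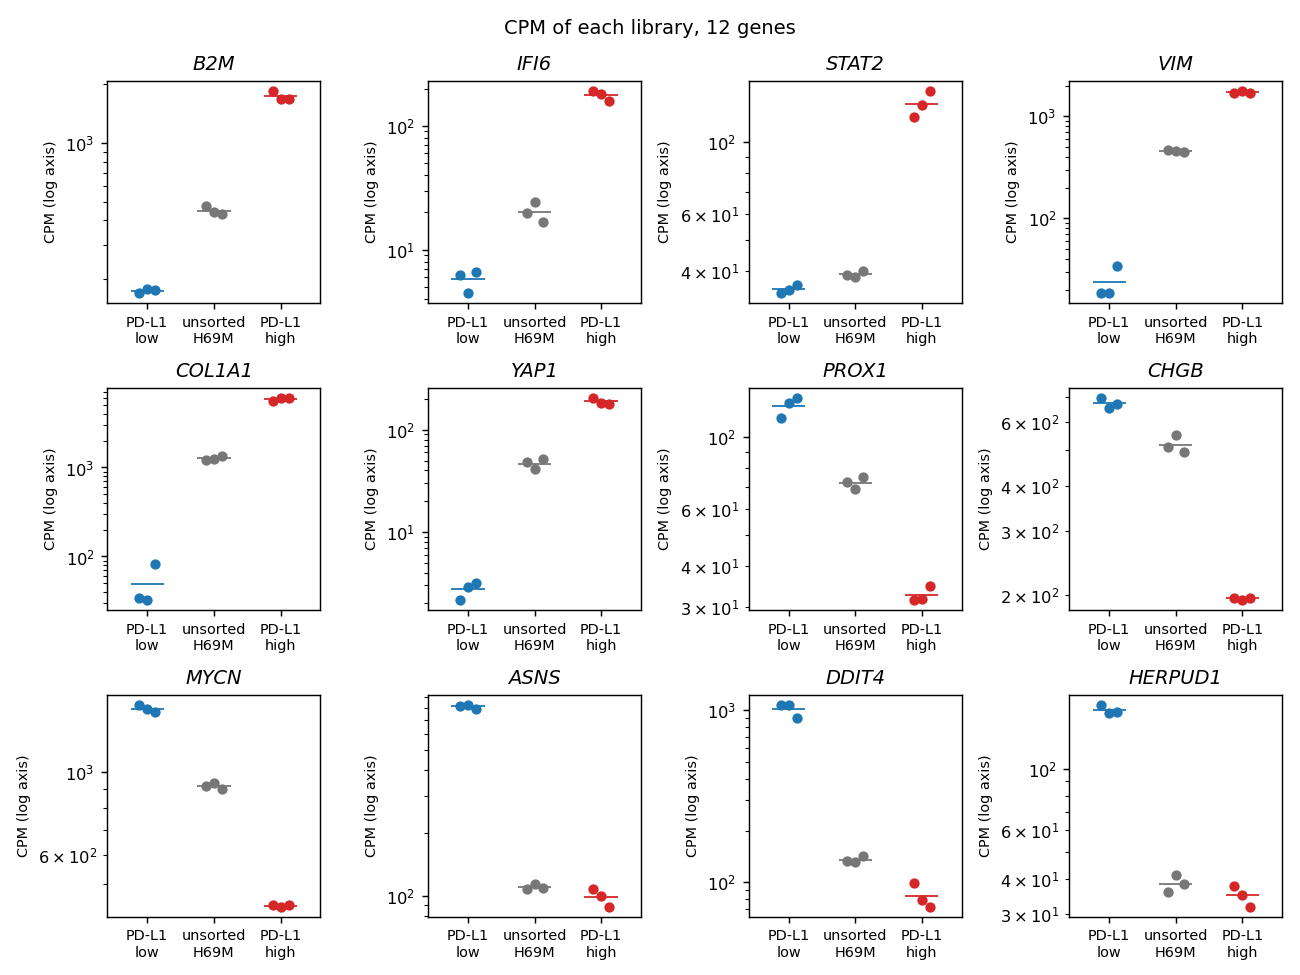
CPM on log axes of 12 genes in each of the 3 PD-L1 low (blue), unsorted H69M (grey) and PD-L1 high (red) libraries, with lines at group means. The fractions do not overlap for any of the 12 genes, and for ASNS, DDIT4 and HERPUD1 the unsorted libraries lie near PD-L1 high, while for STAT2 they lie near PD-L1 low.

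Most neuroendocrine genes fell. Of 30 lineage transcription factors 16 fell and 1 rose at least 2-fold (median -1.05, or -0.95 with the member at 0 counts set at its bound). PROX1, a homeobox factor of neuroendocrine cells, was at 114, 127 and 132 CPM in PD-L1 low and 31.6, 31.7 and 34.8 CPM in PD-L1 high (-1.93 ± 0.08). It was lower in every PD-L1 high library, and FOXA2 (-1.99 ± 0.06), NEUROD4 (-1.57 ± 0.05) and SOX2 (-1.13 ± 0.05) fell too. FOXA1 rose by 0.23 ± 0.05, from 95.6 ± 4.16 to 112 ± 6.51 CPM, a call lost with library totals or upper quartile factors. RUNX1T1 was at -0.01 ± 0.07, not called, and the rise of at least 2-fold was ID3 (1.02 ± 0.06), an inhibitor of proneural factors, while ID2 (-1.23 ± 0.07) and ID4 (-1.35 ± 0.07) fell. In the MYC family, MYC rose from 2.56 ± 0.315 to 17.9 ± 0.231 CPM (2.79 ± 0.11), MYCL fell from 4.14 ± 0.368 to 0.613 ± 0.149 CPM (-2.78 ± 0.22), and MYCN fell by 1.76 ± 0.05 on the log2 scale. REST, which silences neuronal genes outside neurons, rose from 0.824 ± 0.294 to 47.3 ± 3.85 CPM (5.91 ± 0.14). Of its corepressors, RCOR1 was at -0.01 ± 0.05, not called, and RCOR2, the neural paralog, fell from 266 ± 13.01 to 82.7 ± 2.57 CPM (-1.69 ± 0.05).

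Most splicing factors that mark neural and epithelial cells fell. Of 31 tested 12 fell and 4 rose at least 2-fold. SRRM4, which switches on neural microexons and which REST represses, fell from 27.5 ± 1.69 to 9.57 ± 0.374 CPM (-1.53 ± 0.11). RBFOX1 was at 90.9, 98.9 and 90.2 CPM in PD-L1 low and 23.1, 23.98 and 23.9 CPM in PD-L1 high (-1.98 ± 0.07). All 3 PD-L1 high libraries were the lower ones, and NOVA2 (-2.38 ± 0.22), CELF4 (-1.69 ± 0.07), CELF5 (-2.76 ± 0.14) and the epithelial ESRP1 (-1.42 ± 0.05) fell with it. The 4 rises of at least 2-fold were RBMS1 (6.33 ± 0.12), RBMS3 (5.93 ± 0.20), RBM24 (3.93 ± 0.14) and MBNL1 (3.03 ± 0.07), factors of mesenchymal and muscle cells. MBNL1 stood at 24.8 ± 1.8000000 CPM in PD-L1 low and 201 ± 7.85 CPM in PD-L1 high.

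Of 22 granins, prohormone enzymes and peptides 13 fell and 2 rose at least 2-fold (median -1.32). CHGB, a granin of dense-core vesicles, was at 698, 653 and 671 CPM in PD-L1 low and 197, 194 and 196 CPM in PD-L1 high (-1.79 ± 0.07), and SCG3 (-1.75 ± 0.05) and the convertases PCSK1 (-1.33 ± 0.05) and PCSK2 (-1.67 ± 0.05) fell with it. The rises of at least 2-fold were the peptides NPY, from 0.0761 ± 0.0706 to 1.37 ± 0.226 CPM (3.88 ± 0.45), and ADCYAP1 (PACAP, 2.30 ± 0.08), with the precursor VGF rising by less (0.17 ± 0.07, a call lost in 9 of 15 alternatives, 4 of them leaving out 1 library). Of 37 synaptic vesicle and active zone genes 25 fell and 1 rose at least 2-fold (median -1.48). SV2B (-2.61 ± 0.07), SYT7 (-2.17 ± 0.07), SYT4 (-1.97 ± 0.10), the monoamine transporter SLC18A2 (-1.90 ± 0.08) and SNAP25 (-1.48 ± 0.07) fell, and RIMS1 rose from 0.876 ± 0.134 to 4.06 ± 0.287 CPM (2.16 ± 0.19). Voltage-gated channels fell alike: 28 of 42 fell and 1 rose at least 2-fold (median -1.31). They include the potassium channels KCNQ3 (-2.67 ± 0.08), KCNB2 (-2.12 ± 0.08) and KCNH2 (-1.81 ± 0.07), the calcium channel CACNA1B (-1.77 ± 0.09) with its subunit CACNA2D2 (-2.03 ± 0.11), and the sodium channel SCN9A (-1.10 ± 0.07). KCNA3 had 44 counts in PD-L1 low and none in PD-L1 high, at least 13.5-fold lower. HCN2, a pacemaker channel, was the 1 rise at 2-fold or more, at 32.3, 24.2 and 33.1 CPM in PD-L1 low and 83.7, 82.3 and 89.8 CPM in PD-L1 high (1.52 ± 0.09). Its groups were apart, in the direction opposite to HCN3 (-1.28 ± 0.08). VGF had a log2 fold change of 0.15 when PD-L1 high replicate 1 was left out. VGF had a log2 fold change of 0.13 when PD-L1 high replicate 2 was left out. VGF had a log2 fold change of 0.15 when PD-L1 high replicate 3 was left out. NPY had a log2 fold change of 4.47 and VGF of 0.07 when PD-L1 low replicate 2 was left out.

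Neurotransmitter receptors and guidance genes split. Of 29 receptors 17 fell and 7 rose at least 2-fold. The nicotinic subunits CHRNA3 (-1.53 ± 0.07), CHRNA5 (-1.24 ± 0.08) and CHRNB4 (-1.77 ± 0.11) and the glutamate receptor GRIK3 (-2.55 ± 0.10) fell. Another glutamate receptor, GRIA1, rose from 4.14 ± 0.329 to 31.6 ± 0.551 CPM (2.92 ± 0.08). Of 44 guidance genes 16 rose and 12 fell at least 2-fold. Their rises included SEMA5A (8.39 ± 0.24), NTN4 (6.01 ± 0.13), SLIT3 (3.74 ± 0.08) and the semaphorin and VEGF receptors NRP1 (3.28 ± 0.09) and NRP2 (2.94 ± 0.08), and their falls the netrin receptors UNC5A (-2.51 ± 0.09) and DCC (-1.48 ± 0.05), SEMA6A (-1.44 ± 0.05) and EPHB1 (-2.45 ± 0.09). Among 26 surface proteins studied as SCLC targets 13 fell and 8 rose at least 2-fold. SEZ6 was at 325, 284 and 319.5 CPM in PD-L1 low and 53.2, 57.8 and 53.9 CPM in PD-L1 high (-2.49 ± 0.07), and DLL3 at 77.8, 68.5 and 75.002 and 29.3, 27.1 and 25.04 CPM. Both were lower in all PD-L1 high libraries, as were CXCR4 (-2.75 ± 0.07), EPCAM (-1.45 ± 0.06) and CD24 (-1.39 ± 0.06), while CD44 rose from 38.02 ± 4.08 to 574 ± 0.207 CPM (3.93 ± 0.07). ALCAM was at 0.02 ± 0.05, not called. SEMA5A had a log2 fold change of 7.66 when PD-L1 low replicate 1 was left out. SEMA5A had a log2 fold change of 10.45 when PD-L1 low replicate 3 was left out.

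**Figure D3:**
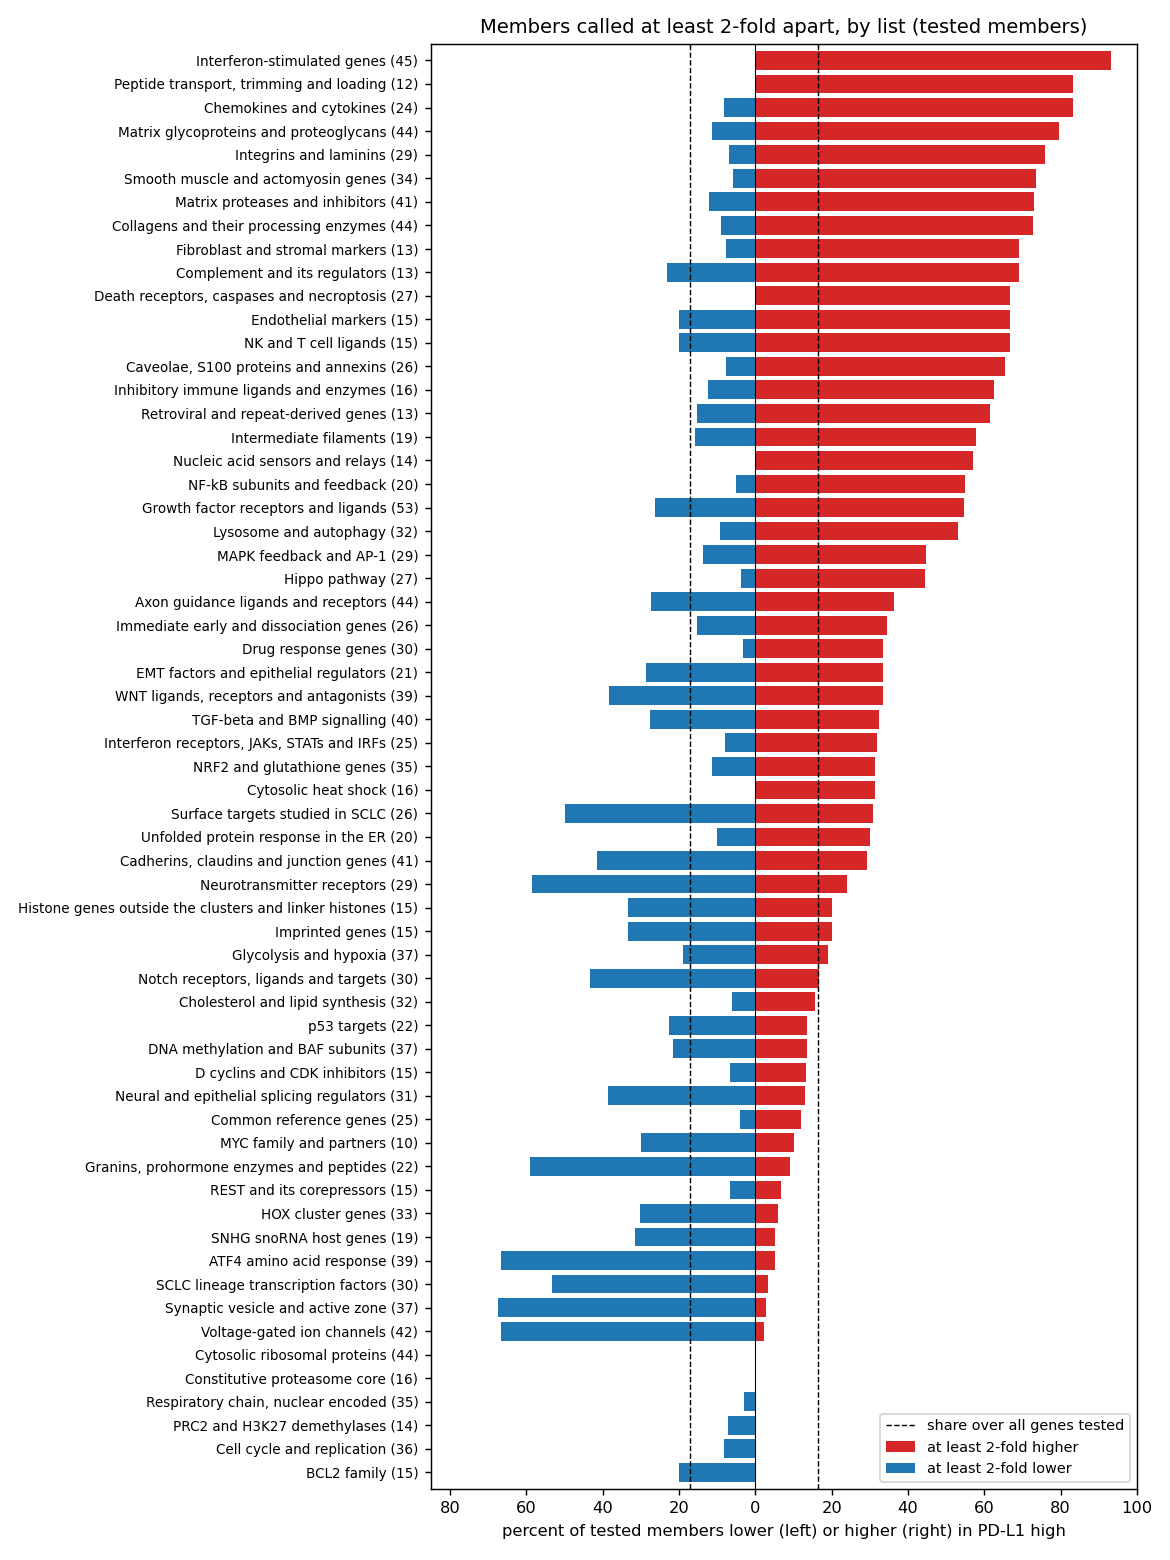
Percent of the tested members of each list (number tested in parentheses) that were called and at least 2-fold lower (blue, left) or higher (red, right) in PD-L1 high, with the shares over all 15445 genes as dashed lines (17% lower, 16.3% higher). Immune and matrix lists extend to the right, synaptic, channel and ATF4 lists to the left, and no member of the ribosomal or constitutive proteasome lists passed 2-fold.

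Junction genes moved in both directions. Of 41 cadherins, claudins and junction genes 17 fell and 12 rose at least 2-fold. E-cadherin (CDH1) was at 73.5, 70.7 and 70.7 CPM in PD-L1 low and 15.1, 11.5 and 11.96 CPM in PD-L1 high (-2.47 ± 0.08), and N-cadherin (CDH2) at 530.3, 548 and 525 and 1471, 1421 and 1418 CPM (1.43 ± 0.05). Both pairs of groups were apart, in opposite directions. The mesenchymal CDH11 rose by 6.25 ± 0.11 and the tight junction genes CLDN4 (-2.37 ± 0.13), CLDN7 (-1.70 ± 0.07) and F11R (-1.84 ± 0.05) fell, but CLDN1, also a claudin, rose from 1.03 ± 0.679 to 118 ± 5.04 CPM (6.99 ± 0.16). Of 21 factors of epithelial to mesenchymal transition and epithelial regulators 7 rose and 6 fell at least 2-fold, with a median of 0.12 that became -0.02 with library totals. The mesenchymal factors PRRX1, from 4.89 ± 1.15 to 238 ± 3.71 CPM (5.65 ± 0.09), ZEB2 (2.41 ± 0.07), ZEB1 (1.47 ± 0.06) and SNAI2 (0.82 ± 0.08) rose. SNAI3 (-3.57 ± 0.47) and the epithelial factors GRHL1 (-1.62 ± 0.14), EHF (-1.89 ± 0.22) and OVOL2 (-1.24 ± 0.07) fell. Intermediate filaments rose in 11 of 19 and fell in 3 at 2-fold or more. The keratin KRT17 rose from 0.364 ± 0.137 to 43.1 ± 1.40001 CPM (6.93 ± 0.16) while KRT19 fell by 1.17 ± 0.07, and the neurofilament NEFL rose from 30.2 ± 0.929 to 213 ± 12.5 CPM (2.82 ± 0.08) while the neuronal PRPH fell by 1.54 ± 0.09. SNAI3 had a log2 fold change of -5.05 when PD-L1 high replicate 1 was left out. SNAI3 had a log2 fold change of -2.97 when PD-L1 high replicate 2 was left out.

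Among the chromatin lists below, changes of at least 2-fold were rarest in the PRC2 list. For comparison, 33.3% of all genes were called and at least 2-fold apart. Of 14 genes of PRC2, the complex that writes H3K27 methylation, and its demethylases, 1 passed 2-fold, the demethylase KDM6B, which fell from 79.97 ± 5.23 to 39.5 ± 2.95 CPM (-1.02 ± 0.08). SUZ12 and EED were at 0.05 ± 0.06 and 0.09 ± 0.07, not called. Of 37 DNA methylation genes and BAF subunits 5 rose and 8 fell at least 2-fold, among the falls the neuronal BAF subunit ACTL6B (-1.65 ± 0.09) and the methyltransferase DNMT3B (-1.18 ± 0.06). SMARCA4 was at 0.13 ± 0.06, not called here but called higher in 3 of 15 alternatives, and SMARCA2, its alternate, rose by 1.07 ± 0.06. In the HOX clusters 10 of 33 genes fell and 2 rose at least 2-fold. The 3 with the lowest fold changes lie in the HOXB cluster: HOXB9 was at 406, 361 and 378 CPM in PD-L1 low and 54.6, 55.3 and 55.4 CPM in PD-L1 high (-2.79 ± 0.07), and HOXB5 (-2.21 ± 0.08) and HOXB6 (-1.81 ± 0.08) followed. HOXB9 groups were apart, while the neighbour HOXB3 was at -0.11 ± 0.05, not called here but called lower in 8 of 15 alternatives. Of 15 linker histones and histone genes outside the clusters 3 rose and 5 fell at least 2-fold, among the falls the linker histones H1F0 (-2.47 ± 0.05) and H1FX (-1.73 ± 0.05). Of 15 imprinted genes 3 rose and 5 fell at least 2-fold. Among them H19, a noncoding RNA, was at 293, 182 and 267 CPM in PD-L1 low and 10.2, 12.4 and 10.1 CPM in PD-L1 high (-4.50 ± 0.15). Its neighbour IGF2 fell by 2.75 ± 0.17 on the log2 scale, PLAGL1 rose by 4.75 ± 0.16, and MEG3 was at 204 ± 17.7 and 204 ± 36.01 CPM (-0.00 ± 0.20, not called). Of 691 long noncoding RNAs 32.6% fell and 14.04% rose at least 2-fold, against 16.04% and 16.6% of 14042 protein-coding genes. The libraries were made by exome capture, which may cover noncoding RNAs unevenly, and the part of capture or of overlapping coding genes in these shares was not tested. Noncoding rises included MIR31HG (8.04 ± 0.31), MIR100HG (5.28 ± 0.16), LINC00941 (4.66 ± 0.12) and NEAT1 (4.06 ± 0.31), the RNA of paraspeckles, whose 3 PD-L1 high libraries were at 151, 177 and 225 CPM against 9.04, 12.8 and 11.4 CPM. Mean NEAT1 was 10.4 CPM in unsorted H69M, below the means of both fractions, and 252.7 CPM in parental H69, above both. MBNL1-AS1 lies antisense to MBNL1, and without known strand its reads cannot be told from those of MBNL1. MIR31HG had a log2 fold change of 7.34 when PD-L1 low replicate 1 was left out. MIR31HG had a log2 fold change of 7.42 when PD-L1 low replicate 2 was left out. MIR31HG had a log2 fold change of 11.70 when PD-L1 low replicate 3 was left out. The PD-L1 low libraries that remained held no MIR31HG count, so 11.70 has no floor and gives only the direction.

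The ATF4 amino acid response was lower in PD-L1 high, in 26 of 39 genes at least 2-fold against 17% of all genes, with 2 rises as large and a median of -1.32. ASNS, asparagine synthetase, was at 818, 827 and 791 CPM in PD-L1 low and 108, 99.3 and 88.7 CPM in PD-L1 high (-3.04 ± 0.06). All PD-L1 high libraries were lower, and unsorted H69M was near them, at 107, 113 and 109 CPM. FGF21, a hormone induced by the same response, was at 20.7, 18.6 and 19.02 CPM in PD-L1 low, 0.245, 0.160 and 0.141 CPM in PD-L1 high and 0.315, 0.199 and 0.268 CPM in unsorted H69M (-6.65 ± 0.19). The serine synthesis enzymes PHGDH (-1.52 ± 0.06), PSAT1 (-1.57 ± 0.07) and PSPH (-1.24 ± 0.07) fell together, as did the mitochondrial folate enzymes MTHFD2 (-2.09 ± 0.07), SHMT2 (-1.32 ± 0.05) and ALDH1L2 (-4.47 ± 0.11). The transporters SLC7A5 (-1.33 ± 0.07) and SLC7A11 (-1.05 ± 0.10) fell, and the aminoacyl-tRNA synthetases AARS (-1.21 ± 0.05), GARS (-1.26 ± 0.06), CARS (-1.48 ± 0.05) and SARS (-1.42 ± 0.05) as well. Of the factors and brakes of the response, ATF4 mRNA fell by 1.29 ± 0.05, ATF5 by 2.49 ± 0.07, CEBPG by 1.59 ± 0.07, TRIB3 by 2.46 ± 0.07 on the log2 scale, as did CHAC1 (-2.95 ± 0.11), which degrades glutathione. Members outside the trend were SLC1A5 (-0.05 ± 0.06) and WARS (-0.03 ± 0.05), neither called, and the rises of at least 2-fold, JDP2 (1.46 ± 0.12), an AP-1 relative, and NUPR1 (1.33 ± 0.24), a stress-induced chromatin protein. WARS is also induced by interferon. The promoters of 3 of the genes that fell are shown with their match to TGATGNAA, the composite element read by ATF4 and C/EBP partners, in capitals: ASNS at chr7:97872423-97872522 on the minus strand, CHAC1 at chr15:40953221-40953320 on the plus strand and FGF21 at chr19:48755424-48755523 on the plus strand.
ASNS: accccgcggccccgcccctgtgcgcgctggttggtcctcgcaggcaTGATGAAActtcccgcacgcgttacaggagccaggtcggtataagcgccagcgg
CHAC1: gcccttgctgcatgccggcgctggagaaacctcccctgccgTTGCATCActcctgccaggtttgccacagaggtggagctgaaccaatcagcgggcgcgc
FGF21: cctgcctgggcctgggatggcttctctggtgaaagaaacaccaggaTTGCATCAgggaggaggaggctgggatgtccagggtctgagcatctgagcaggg

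The other stress programmes moved differently. Of 20 genes of the unfolded protein response 6 rose and 2 fell at least 2-fold. The chaperones HSPA5 (BiP) at 459, 418 and 448 CPM in PD-L1 low and 1367, 1319 and 1269.8 CPM in PD-L1 high (1.58 ± 0.06), CALR (1.85 ± 0.06) and PDIA4 (1.55 ± 0.05) rose. HERPUD1, which ATF4 also drives, fell from 163 ± 5.86 to 35.04 ± 3.003 CPM (-2.21 ± 0.07), as did the sensor ERN1 (-1.39 ± 0.08) and the factor XBP1 (-0.78 ± 0.05). HSPA5 and HERPUD1 were thus apart between fractions in opposite directions. Of 16 cytosolic heat shock genes 5 rose and none fell at least 2-fold, HSPA8 by 1.22 ± 0.07 and CRYAB by 4.19 ± 0.21, while the factor HSF1 was at -0.03 ± 0.06, not called. Of 37 glycolysis and hypoxia genes 12 rose and 21 fell, 7 in each direction at least 2-fold. The hypoxia factor EPAS1 (HIF2-alpha) was at 0.222, 0.0930 and 0.579 CPM in PD-L1 low and 87.2, 94.98 and 86.8 CPM in PD-L1 high (8.40 ± 0.17) and HIF1A rose by 1.17 ± 0.06, whereas the hypoxia targets NDRG1 (-2.56 ± 0.09), BNIP3 (-1.57 ± 0.07), PDK1 (-1.58 ± 0.08) and HK2 (-1.43 ± 0.08) fell. EPAS1 groups did not overlap. None of the 44 listed ribosomal protein genes passed 2-fold, and 32 fell by less, with a median of -0.29, while RPL13A, which is outside that list, fell by 1.08 ± 0.08 on the log2 scale. In a list of 19 noncoding genes, 18 of them hosts of small nucleolar RNAs, 17 fell, 6 of them at least 2-fold, and RMRP, the RNA of RNase MRP and no host gene, rose by 2.26 ± 0.84, a call lost without PD-L1 low replicate 2 or PD-L1 high replicate 3. SNHG1 fell from 272 ± 6.57 to 62.4 ± 4.44 CPM (-2.13 ± 0.07). Lysosomal genes rose in 17 of 32 and fell in 3 at 2-fold or more: the proteases CTSB (2.65 ± 0.06) and CTSD (2.16 ± 0.05), the lipase LIPA (5.15 ± 0.12) and LAMP1 (1.52 ± 0.05) rose, and their regulator TFEB fell by 1.91 ± 0.09 on the log2 scale. RMRP had a log2 fold change of 0.95 when PD-L1 high replicate 3 was left out. RMRP had a log2 fold change of 2.93 when PD-L1 low replicate 1 was left out. RMRP had a log2 fold change of 1.61 when PD-L1 low replicate 2 was left out. EPAS1 had a log2 fold change of 9.09 when PD-L1 low replicate 3 was left out.

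Among redox genes 11 of 35 rose and 4 fell at least 2-fold. GSTP1 rose from 4.23 ± 1.01 to 151 ± 1.196 CPM (5.18 ± 0.10) and NQO1 by 2.47 ± 0.08, while NFE2L2, which encodes NRF2, fell by 0.58 ± 0.05 and its target HMOX1 was at -0.06 ± 0.09, not called. Of 36 cell cycle genes 3 passed 2-fold, all lower: E2F1 at 376, 342 and 381 CPM in PD-L1 low and 119.7, 111 and 114.5 CPM in PD-L1 high (-1.67 ± 0.05), E2F2 (-1.68 ± 0.06) and the licensing factor CDT1 (-1.24 ± 0.08). E2F1 was apart in all libraries. MKI67, the proliferation antigen, rose by 0.22 ± 0.08 only, and TOP2A was at -0.05 ± 0.05, not called. The MKI67 call was lost in 7 of 15 alternatives, 4 of them leaving out 1 library, and TOP2A was called lower in 4. CDK6 rose from 69.5 ± 2.77 to 267 ± 6.499 CPM (1.94 ± 0.07), CCND2 fell from 5.47 ± 1.07 to 0.173 ± 0.221 CPM (-5.12 ± 0.37) and CDKN2B rose by 1.98 ± 0.09. Of 30 genes tied to drug response 10 rose and 1 fell at least 2-fold. SLFN11, whose level is linked to sensitivity to DNA-damaging drugs, was at 0.0886, 0.326 and 0.434 CPM in PD-L1 low and 11.1, 9.72 and 8.65 CPM in PD-L1 high (5.22 ± 0.25). Its groups were apart, and SLFN5 (6.27 ± 0.13), the transporter ABCC3 (4.21 ± 0.14) and the tubulin TUBB6 (3.95 ± 0.06) rose, while the repair genes BRCA1 (-0.81 ± 0.05) and CHEK1 (-0.52 ± 0.05) fell. SLFN12 had no count in PD-L1 low and 279 in PD-L1 high, at least 100.9-fold higher. CCND2 had a log2 fold change of -4.51 and MKI67 of 0.17 when PD-L1 high replicate 2 was left out. CCND2 had a log2 fold change of -6.61 and MKI67 of 0.17 when PD-L1 high replicate 3 was left out. MKI67 had a log2 fold change of 0.15 when PD-L1 low replicate 1 was left out. MKI67 had a log2 fold change of 0.19 when PD-L1 low replicate 2 was left out.

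Unsorted H69M was set against its fractions, to see where the mixed population lies. For each gene the position of the unsorted mean was expressed as a percent of the way from the PD-L1 low mean (0) to the PD-L1 high mean (100), on the CPM scale. Among the 1080 genes at least 8-fold higher in PD-L1 high the median position was 19.9%, with quartiles of 13.6% and 25.7%, and unsorted H69M lay between the fractions for 98.5%. Among the 229 genes at least 8-fold lower the median position was 90.7%, with quartiles of 76.9% and 97.7%, and 87.3% lay between. At the 2-fold threshold the medians were 19.6% for the genes that rose and 59.5% for those that fell, with quartiles of 33.2% and 85.2% for the latter. Tests of the unsorted libraries against each fraction share those fractions' libraries with the main comparison, so their values are given side by side. Counts of members chosen by the main comparison are descriptions only, since the shared libraries favour their outcome. Over all genes, 8.5% were at least 2-fold higher and 15% lower in unsorted H69M than in PD-L1 high, and 7.92% higher and 8.48% lower than in PD-L1 low, by the same fit and threshold.

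The median position differed by list, over the members that changed at least 2-fold. Rising interferon-stimulated genes lay at a median of 8.53%, collagens at 16.6%, MHC class I genes at 16.6% and smooth muscle genes at 27.8%. Of the 32 collagen list members that rose at least 2-fold, 32 were at least 2-fold lower in unsorted H69M than in PD-L1 high. So were 42 of 42 interferon-stimulated, 7 of 7 MHC class I and 22 of 25 smooth muscle genes that rose as far. All were selected as high in the same PD-L1 high libraries, which favours this outcome. Among the falls, granins lay at 30.2%, lineage factors at 41.4%, synaptic genes at 43.1% and channels at 54.4%. The 26 ATF4 response genes that fell at least 2-fold lay at 100.5%. Of these, 25 were at least 2-fold lower in unsorted H69M than in PD-L1 low, and none was at least 2-fold higher than in PD-L1 high. These members were selected as high in the same PD-L1 low libraries, so the 8.48% of all genes is no background for that count. DDIT4, a target of ATF4 that restrains mTORC1, was at 1068, 1075 and 898, 133, 131 and 142 and 99.5, 78.6 and 72.4 CPM in the PD-L1 low, unsorted and PD-L1 high libraries. TRIB3 was at 288, 30.7 and 52.04 CPM in the same order. For these genes PD-L1 low was the group that stood apart from unsorted H69M, and parental H69 was at 113 CPM for DDIT4 and 25.6 CPM for TRIB3. The libraries of unsorted cells did not pass through the sort, and whether handling or medium differed between sorted and unsorted cells is not stated in the labels.

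**Figure D4:**
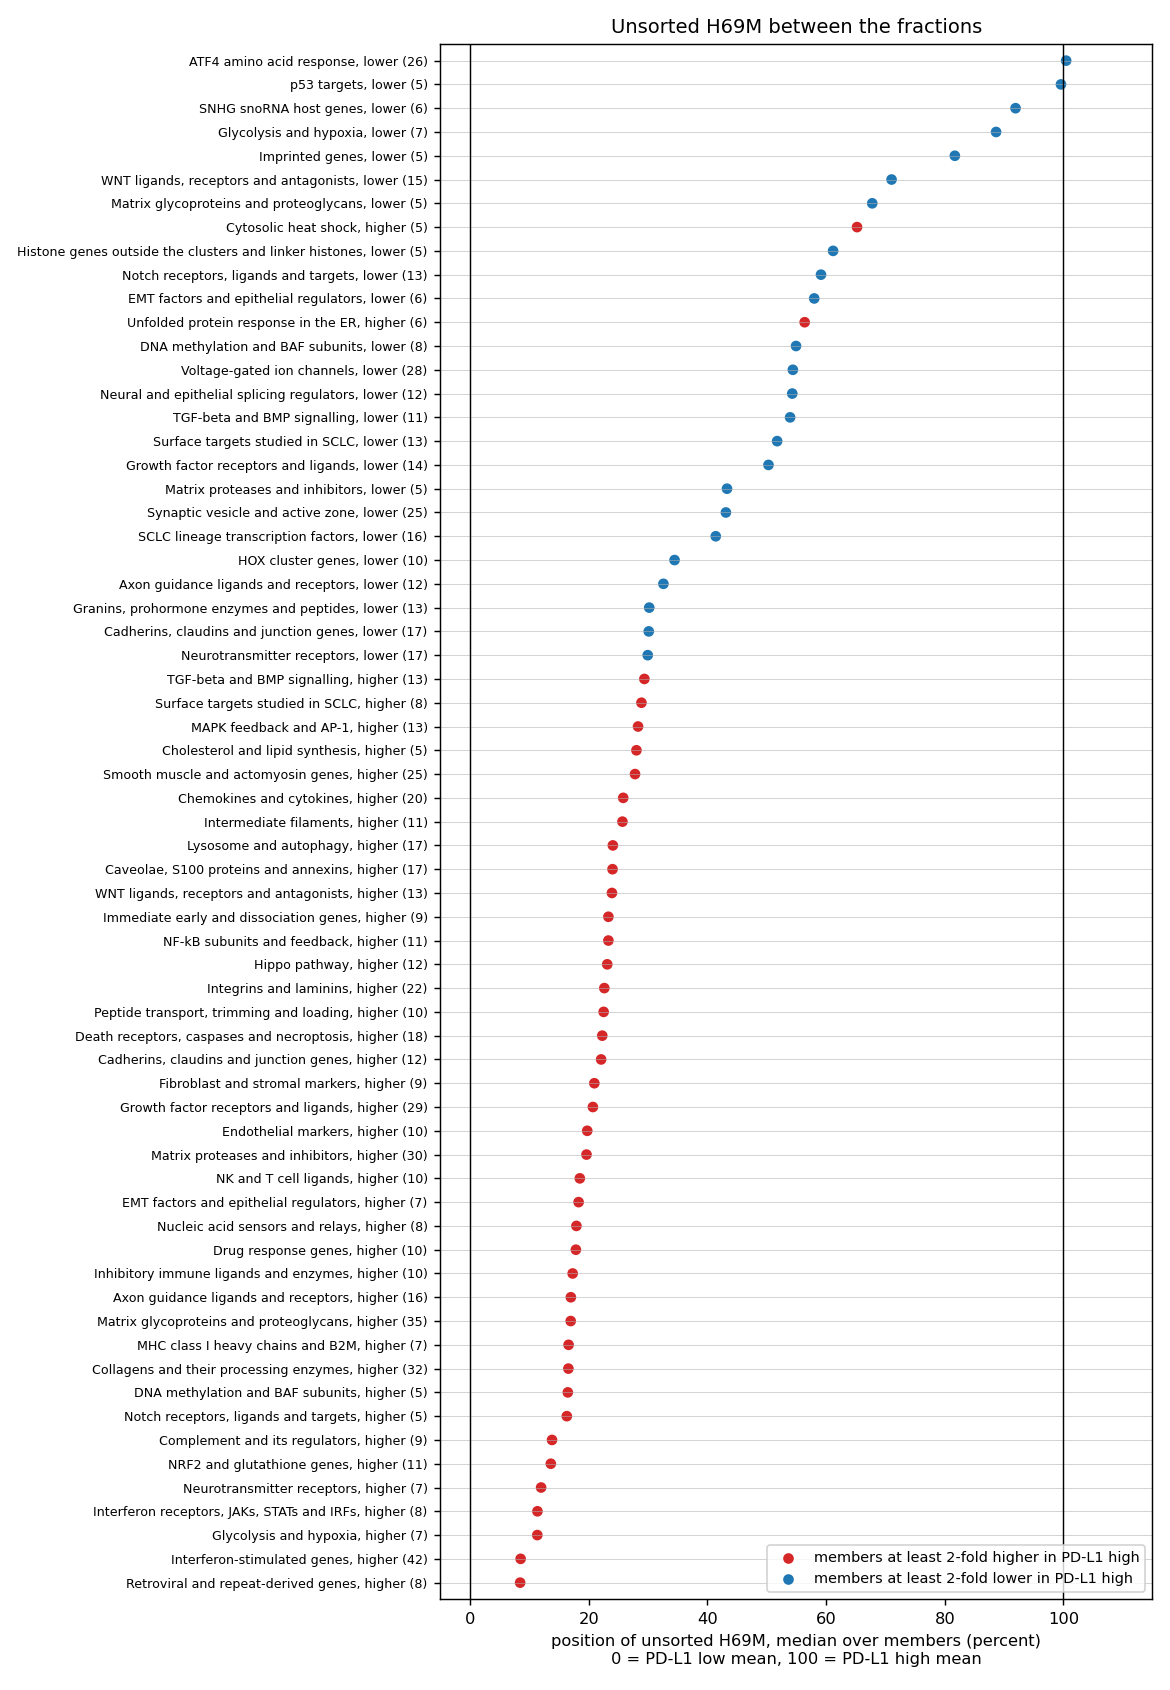
Median position of unsorted H69M between the PD-L1 low mean (0) and the PD-L1 high mean (100) over the members of each list that were called and at least 2-fold higher (red) or lower (blue) in PD-L1 high, for lists with at least 5 such members (number in parentheses). Lists of rises lie between 8% and 30% except the unfolded protein response and heat shock, at 56.4% and 65.2%, and lists of falls spread from 30% to 100%.

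Promoter sequence was compared over the genes with a RefSeq promoter (GRCh38.p14, 250 bases before to 50 after the start), 11083 of the 15445 tested, matched by symbol. Each motif was searched on both strands as exact letters, and overlaps between motifs were not removed. The interferon response element core (GAAA, 2 bases, GAAA) was in 2.76% of the promoters of all tested genes, in 7.01% of those at least 8-fold higher and in 0.69% of those at least 8-fold lower, and in 3.65% of all 27305 promoters of the table. In the interferon-stimulated list 25 of 36 promoters held it (69.4%). The AP-1 motif (TGANTCA) was in 4.78% of tested promoters, 9.26% of those at least 8-fold higher and 7.59% of those at least 8-fold lower, with 7.76% over the table. TEAD letters (CATTCC) were in 10.9%, 14.9% and 11.7%, with 14.05% over the table. The E-box bound by proneural factors (CAGNTG) was in 44.3%, 45.6% and 59.3%, with 49.9% over the table. The C/EBP-ATF letters (TGATGNAA) were in 1.76%, 3.57% and 6.90%, with 3.67% over the table, and in the ATF4 list 4 of 25 promoters held them (ASNS, CHAC1, FGF21 and SLC3A2). The median GC content was 65% over tested promoters, 62% for genes at least 8-fold higher and 63.3% for genes at least 8-fold lower, and the share of a motif moves with base composition. The shares rest on 756 promoters of genes at least 8-fold higher and on only 145 of genes at least 8-fold lower. These shares are descriptions, with no test, and a match is not a binding site.

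**Figure D5:**
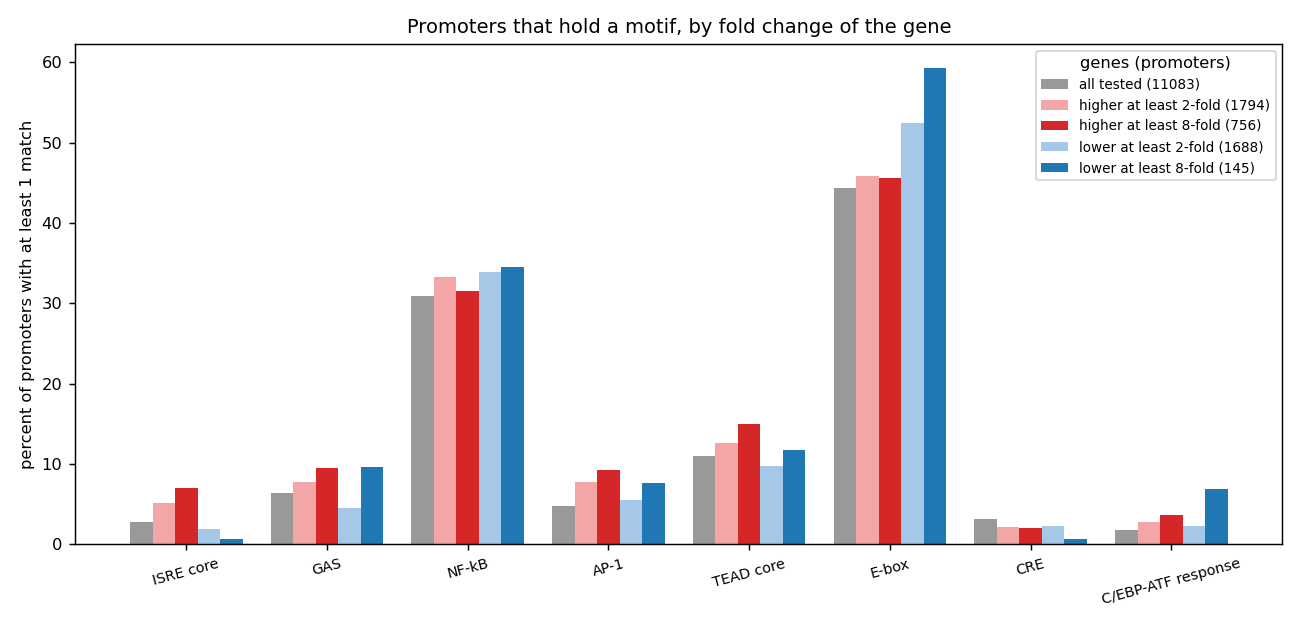
Percent of promoters (300 bases) with at least 1 match to each of 8 motifs, for all tested genes (grey) and for genes at least 2-fold or 8-fold higher (reds) or lower (blues) in PD-L1 high, number of promoters in parentheses. The interferon element reaches 7.01% in the genes at least 8-fold higher against 2.76% of all tested, and the E-box 59.3% in the genes at least 8-fold lower against 44.3%.

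Some genes were measured as close to equal. For 762 of the 15445 genes (4.93%) the 95% interval of the log2 fold change lay within 0.2 of 0. Among 25 genes often used as references, TBP was at 35.3 ± 1.4995 and 36.03 ± 1.57 CPM (0.03 ± 0.06) and PPIA at 629 ± 19.5 and 650.4 ± 43.98 CPM (0.05 ± 0.08), neither called, whereas GAPDH fell by 0.20 ± 0.06 on the log2 scale and PPIB rose by 1.52 ± 0.05. With library totals in place of TMM scaling all log2 fold changes moved by a median of -0.139, so differences of that size rest on the scaling.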

How the data were processed

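Gene counts from RNA sequencing were deposited by the authors as whole numbers per gene and library, with no normalization. Reads were aligned with STAR 2.6.1 to hg19, per the submitters' processing notes. No source used here gives the counting program, its annotation or its strand setting, which leaves antisense and overlapping genes uncertain. Total counts per library were 13104998 to 21533233 in the sorted fractions, and intervals on counts cover counting error only.

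Genes of the table of 12 libraries (H69, unsorted H69M and both fractions) were filtered with filterByExpr at a minimum count of 10, which kept 15445 of 25435. TMM factors, edgeR 4.0.16 quasi-likelihood fits over all 12 libraries and Benjamini-Hochberg adjustment followed, in R 4.3.3. CPM were computed from the deposited counts after TMM scaling. A gene was called at an adjusted p under 0.05, and counts at 2-fold also need that fold change. No count of 0 entered a fold change as a bound without a floor of 3 counts over the group. The fitted values of TIMP3, PDCD1LG2 and MIR31HG without PD-L1 low replicate 3 have no such floor. The gene lists and comparisons were chosen with earlier results of these data known. The rule for named genes took CD274, the 15 largest rises and 15 largest falls among called genes of at least median CPM, the 10 largest CPM differences each way, and in each list up to 5 members by fold change with members that go against it and its reference genes. Other genes named were chosen after their values were seen, as were the contrasts with unsorted H69M and the lists of interferon-stimulated, SNHG and histone genes. Alternatives were other filters and scalings, DESeq2 1.42.0, limma 3.58.1 voom, the 6 sorted libraries alone, a replicate block and leaving out each library. Scripts were tested on simulated data. Promoters are RefSeq GRCh38.p14, since no hg19 sequence was used here.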

Additional observations from a re-analysis of the deposited data

How the results depend on the processing

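No called gene of the main comparison was called in the opposite direction under the 15 alternatives run here. The counts of called genes and of called genes at 2-fold were 12924 and 6031 with no filter beyond 1 count, 10150 and 3584 with a minimum count of 100, 12221 and 5283 with library totals, 12190 and 5261 with upper quartile factors, and 11805 and 5086 with DESeq2's Wald test, against 12100 and 5144. Leaving out 1 library gave 11760 to 11946 called and 5221 to 5284 at 2-fold. Library totals and upper quartile factors moved all log2 fold changes by a median of -0.139 and -0.119 and lowered the share of called genes that rose from 49.8% to 41.4% and 42.6%. A test against a 2-fold threshold (glmTreat), added after seeing the data, called 4185 genes, 2183 higher and 2002 lower. The correlations of same-numbered replicates across fractions were 0.0058, -0.067 and 0.040, so no pairing by number was seen. With 3 libraries per fraction these values cannot decide whether same-numbered libraries share a sort or culture. With a replicate block 11894 genes were called and 4999 at 2-fold, against 12047 and 4998 in the same 6 libraries without it. The medians of the EMT, REST, cholesterol and common reference lists fell below 0 with library totals, at -0.02, -0.07, -0.10 and -0.07. That of the drug response list did so at a minimum count of 100, at -0.07. The PRC2 median rose above 0 with DESeq2 size factors, at 0.03. Depth limited genes near 0 counts: 90 tested genes had no count in PD-L1 low and 11 none in PD-L1 high. For the 344 genes named with a value, 5072 of 5133 values under the alternatives kept their direction and their side of the threshold, 34 lost the call, 27 gained one and 0 reversed; the cause was not tested.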
